A study of Mus musculus with 9 samples.

Results

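Collagen is changed many times between its translation and its place in a fibre, and the genes described here make the enzymes and helpers that do this work. The set holds 38 genes, listed by name and looked up by symbol among the 43644 genes measured, and every one of them was found. The rule names the genes and sets no threshold on a measured value. They fall into 7 roles, taken below largely in the order in which they act on a procollagen chain. Export from the endoplasmic reticulum and its control come last.

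The genes were measured by single-end RNA sequencing of 75 cycles in the coronal suture, a fibrous joint of the skull roof, of C57BL/6 mice aged 7 months. REG denotes Twist1+/- mice that had suture regeneration surgery at 1 month of age, MUT denotes Twist1+/- mice without surgery, and WT denotes wild-type mice without surgery, with 3 libraries in each group. REG and MUT therefore share the genotype and differ in the surgery, and WT received neither. Twist1 encodes a transcription factor of the suture mesenchyme, and loss of 1 copy leads to early fusion of the coronal suture in mice. What the surgery consisted of, whether a library is 1 animal or a pool, and what an induction named in the series text refers to are not stated in the labels. The p-values therefore measure the spread between these libraries. Values are upper-quartile scaled read numbers, called scaled values below, so that the gene at the 75th percentile sits near 2.76 in every library. Estimated reads per library were 18276494 to 39377876 in REG, 2945636 to 10894209 in MUT and 16356391 to 20019712 in WT, so low values in MUT were the least precise.

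Procollagen chains enter the endoplasmic reticulum (ER), where prolyl hydroxylases modify proline and lysyl hydroxylases modify lysine, some of which then carries sugars. Chaperones and proline isomerases help the chains to wind into a helix, coat proteins of the export machinery carry the long molecule out, and proteases outside the cell remove its end pieces. Lysyl oxidases then join neighbouring molecules by crosslinks. Bone and suture are rich in type I collagen, and inherited loss of several of these genes causes brittle bone disease (osteogenesis imperfecta) or Ehlers-Danlos syndrome in humans.

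Most of the set was lower in the unoperated mutant suture than in wild type and higher in the operated than in the unoperated mutant suture. In MUT against WT, 28 of the 38 genes were called lower and 1, Pcolce2, was called higher (limma on all 9 libraries, Benjamini-Hochberg adjusted p under 0.05 over 29107 genes), against 14.6% of all genes tested called lower and 20.5% called higher. The median log2 fold change of the 38 genes was -2.01, against 0.18 over all genes tested. In REG against MUT, 26 were called higher and 1, again Pcolce2, lower, against a background of 11.8% higher and 24.8% lower, with a median of 2.06 in the set and -0.36 over all genes. In REG against WT none of the 38 was called, and 0% of all genes were called in either direction. There, 2 of the 38 (P4ha2 and Fkbp9) and 2755 of all genes had an unadjusted p under 0.05 (limma). The set's median in REG against WT was -0.20, against -0.18 over all genes. The same 26 genes were lower in MUT against WT and higher in REG against MUT, but both comparisons use the 3 MUT libraries, so the second count is not independent of the first.

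**Figure D1:**
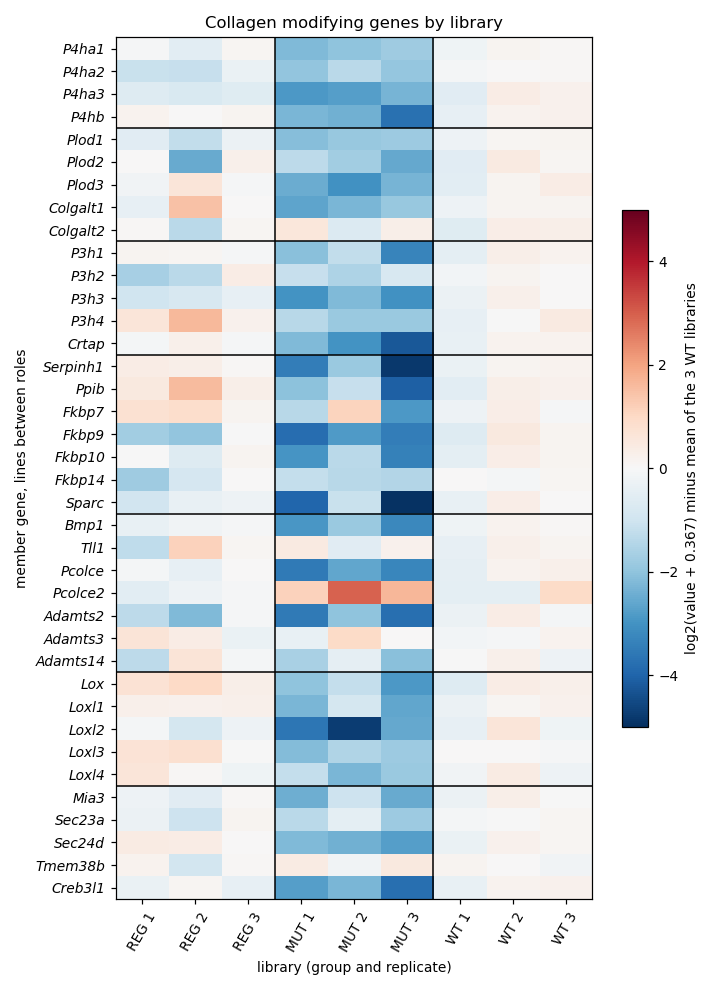
Log2 scaled value of each of the 38 genes (rows, black lines between the 7 roles) in each library (columns) minus the mean of the 3 WT libraries, from blue (lower) to red (higher). The MUT columns are blue for most rows, with Pcolce2 red in all 3 and Fkbp7 red in replicate 2, and the REG columns are near the WT columns, apart from single cells such as Plod2 in REG replicate 2.

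Over all genes, the share called lower in MUT against WT was larger under a stricter filter. Among the 11449 genes that remained under a filter on low values 10 times stricter, 34.8% were called lower in MUT against WT and their median was -0.99, while 29 of the 35 set members left were called lower with a median of -2.21. In REG against MUT the same filter gave 26 of 35 members higher against 24.3% of all genes. Relative to the genes left by that filter, the set's median in MUT against WT was thus lower by 1.22 log2 units, against 2.19 relative to all genes tested. A gene passed that filter if 3 libraries of any group reached 3.67, so genes high only in REG or WT passed too. Medians also depend on the scaling: with scaling to total reads and the usual filter, that of all genes in MUT against WT was 1.11.

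The libraries differed in more than their group. Twist1 itself had scaled values of 3.76 to 12.2 in REG, 0.548 to 8.08 in MUT and 16.2 to 23.3 in WT, and was lower in MUT than in WT (limma, log2 fold change -3.26 ± 0.76 SE, adjusted p = 0.0109). Reads on 1597 olfactory and vomeronasal receptor genes, which a suture is not known to use, gave an estimate of reads spread over the genome: such reads were estimated at 0.493 to 0.816% of all reads in REG, 7.21 to 22.5% in MUT and 0.592 to 0.857% in WT. Reads of the mitochondrial genome made up 9.70 to 15.5% in REG, 2.01 to 4.78% in MUT and 9.96 to 13.5% in WT. The tissue's own markers moved too: in MUT against WT, 7 of 12 osteoblast markers and 10 of 12 suture mesenchyme and fibroblast markers were lower, against 14.6% of all genes tested. Twist1, the gene that defines the genotype, is 1 of those 10. The summed scaled value of the mesenchyme markers was 551 to 635 in REG, 49.1 to 213 in MUT and 517 to 964 in WT, and that of the osteoblast markers 2184 to 2977 in REG, 145 to 1413 in MUT and 1164 to 2768 in WT. Fewer cells of a type and less RNA per cell cannot be told apart in such bulk samples. Several markers of other cell types were called higher in MUT against WT, as were 20.5% of all genes tested. B cell markers summed to 71.2 to 113 in REG, 338 to 1778 in MUT and 36.03 to 84.2 in WT. Of the 10, 3 were called higher in MUT against WT, near the share of all genes. Keratinocyte markers summed to 5.93 to 9.04 in REG, 57.9 to 266 in MUT and 10.9 to 14.97 in WT, with 5 of 10 called higher and 1 lower. Neuron and glia markers summed to 9.71 to 27.7 in REG, 54.7 to 102 in MUT and 10.9 to 17.5 in WT, with 5 of 10 called higher. The part of these differences in the results was not tested. Skeletal muscle markers summed to 276, 424 and 44.9 in REG replicates 1 to 3, against 19.05 to 29.5 in MUT and 9.94 to 71.9 in WT. Of these markers, 6 of 10 were called higher in REG against MUT, against 11.8% of all genes tested. REG replicates 1 and 2 thus stood apart from REG replicate 3. The library names of REG replicates 1 and 2 also follow another pattern than that of REG replicate 3. What the pattern stands for is not stated in the labels, and its part in the results was not tested. Neutrophil markers summed to 1372 to 3717 in REG, 375 to 1274 in MUT and 211 to 1050 in WT, and erythroid markers to 774 to 1731 in REG, 564 to 1045 in MUT and 298 to 794 in WT, with none called in MUT against WT. Krt14 and Tnnc2 had no read in at least 1 MUT library, as did the fibroblast gene Dpt.

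In both MUT against WT and REG against MUT, 7 members kept their call under each of 23 other ways of processing: Plod3, Serpinh1, Bmp1, Pcolce, Loxl2, Sec24d and Creb3l1. Promoter sequence of 300 bases, 250 before to 50 after a gene's start, was at hand for 4 of these 7, and is shown because these genes moved together (RefSeq, GRCm38.p6, each written 5' to 3' along the gene's own strand). Capitals mark matches on either strand to the E-box CANNTG, which factors of the Twist family bind, the hypoxia element core ACGTG, the longer box TGACGTGG that contains it, the CCAAT box and the TATA box TATAAA.
Serpinh1, chr7:99353190-99353489, minus strand: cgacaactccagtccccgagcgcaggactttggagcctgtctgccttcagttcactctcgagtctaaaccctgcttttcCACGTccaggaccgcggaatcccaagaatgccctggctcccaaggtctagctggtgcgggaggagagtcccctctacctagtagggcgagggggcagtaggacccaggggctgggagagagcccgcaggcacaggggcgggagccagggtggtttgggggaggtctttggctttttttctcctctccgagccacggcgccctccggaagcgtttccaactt
Plod3, chr5:136986769-136987068, plus strand: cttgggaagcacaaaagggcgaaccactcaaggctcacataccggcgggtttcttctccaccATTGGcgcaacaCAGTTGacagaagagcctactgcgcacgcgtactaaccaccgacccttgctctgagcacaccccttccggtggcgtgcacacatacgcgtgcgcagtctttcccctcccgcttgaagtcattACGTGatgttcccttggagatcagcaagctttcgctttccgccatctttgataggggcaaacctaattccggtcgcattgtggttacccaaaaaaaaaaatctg
Pcolce, chr5:137611355-137611654, minus strand: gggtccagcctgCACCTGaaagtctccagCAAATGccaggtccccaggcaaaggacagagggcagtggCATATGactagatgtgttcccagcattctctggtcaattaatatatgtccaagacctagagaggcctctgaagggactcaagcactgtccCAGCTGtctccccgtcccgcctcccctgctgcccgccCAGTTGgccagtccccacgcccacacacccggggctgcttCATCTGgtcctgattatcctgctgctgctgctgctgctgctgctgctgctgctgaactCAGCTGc
Sec24d, chr3:123267246-123267545, plus strand: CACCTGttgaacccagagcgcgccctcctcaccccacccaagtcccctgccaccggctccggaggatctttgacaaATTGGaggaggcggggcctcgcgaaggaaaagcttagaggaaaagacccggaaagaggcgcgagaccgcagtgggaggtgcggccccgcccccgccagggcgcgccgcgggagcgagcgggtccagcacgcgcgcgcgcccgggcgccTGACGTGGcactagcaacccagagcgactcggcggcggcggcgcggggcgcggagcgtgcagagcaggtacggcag
The Pcolce window held 7 E-boxes and none of the other motifs, while the Serpinh1 window held 1 hypoxia core and no E-box. The Pcolce window belongs to a RefSeq start inside the gene as measured, which spans 137605103 to 137613785 on the minus strand. Sec24d held 1 TGACGTGG box, 1 CCAAT box and 1 E-box, and Plod3 held 1 hypoxia core, 1 CCAAT box and 1 E-box. Windows were found for 26 of the 38 genes (29 windows in all), and 16 of the 29 (55.2%) held an E-box, against 72.3% of all 32851 promoter windows. The hypoxia core stood in 13 of 29 (44.8%) against 19.6% of all, and TGACGTGG, every copy of which is also counted as a hypoxia core, in 3 of 29 (10.3%) against 0.676%. Those 3 were the windows of Sec24d, Sec23a and Adamts3. CCAAT stood in 10 of 29 (34.5%) against 37.4% of all, and TATAAA in 3 of 29 (10.3%) against 13.6%. These are matches of letters only, several genes have more than 1 window, and no binding was measured.

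Prolyl 4-hydroxylase makes the 4-hydroxyproline that keeps the collagen helix stable at body temperature. It consists of a catalytic alpha subunit, encoded by P4ha1, P4ha2 or P4ha3, and the beta subunit P4hb, which is also protein disulfide isomerase. All 4 were called lower in MUT against WT, and 3 of 4 were called higher in REG against MUT. P4hb, the most abundant of the 4, had scaled values of 142, 128 and 140.2 in REG, 25.6, 23.5 and 9.18 in MUT and 95.9, 145 and 146 in WT libraries. Every MUT library lay below every library of the other groups, and REG and WT overlapped. P4hb fell by 2.81 ± 0.43 log2 units (SE) in MUT against WT (limma, adjusted p = 0.00214) and rose by 2.92 ± 0.43 in REG against MUT (limma, adjusted p = 0.00203).
Among the alpha subunits, P4ha1 had 22.8, 16.4 and 25.4 in REG, 4.87, 5.62 and 6.78 in MUT and 20.5, 26.5 and 25.3 in WT libraries. The rarer P4ha3 had 9.86, 9.22 and 10.1 in REG, 1.86, 2.03 and 2.87 in MUT and 10.5, 20.3 and 18.3 in WT libraries. Both showed the MUT libraries below the others, and for P4ha3 the 3 REG libraries also lay just below the lowest WT library. P4ha3 fell by 2.64 ± 0.36 in MUT against WT (limma, adjusted p = 0.0015) and rose by 1.97 ± 0.36 in REG against MUT (limma, adjusted p = 0.00401), while P4ha1 fell by 2.00 ± 0.33 in MUT against WT and rose by 1.83 ± 0.33 in REG against MUT. P4ha2 stood apart with 12.7, 12.5 and 21.98 in REG, 6.78, 10.8 and 7.001 in MUT and 26.3, 28.6 and 29.1 in WT libraries. Its REG libraries lay between the MUT and WT libraries without overlap with either. P4ha2 fell by 1.76 ± 0.36 in MUT against WT (limma, adjusted p = 0.00627), but its differences of 0.89 ± 0.36 in REG against MUT (limma, adjusted p = 0.0753) and -0.87 ± 0.36 in REG against WT (limma, adjusted p = 0.513) did not pass. As a share of the alpha subunit values per kilobase of exon, P4ha1 made up 51.7, 44.7 and 47.7% in REG, 41.4, 36.5 and 44.7% in MUT and 39.7, 36.8 and 36.9% in WT libraries. P4ha2 made up 18.99, 22.4 and 27.3% in REG, 37.9, 46.2 and 30.4% in MUT and 33.6, 26.2 and 28.1% in WT, and such shares within a library do not depend on the scaling between libraries. P4ha1 was thus the leading alpha subunit in 7 of the 9 libraries, P4ha2 led in MUT replicate 2 and P4ha3, narrowly, in WT replicate 2. Shares here and in the families below were not corrected for reads spread over the genome. Such reads were estimated at 56.9, 31.0 and 31.2% of P4ha3's reads in MUT replicates 1 to 3, against 0.410 to 0.999% in WT.

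Lysyl hydroxylases (Plod1, Plod2, Plod3) prepare lysines for sugars and for crosslinks, and Colgalt1 and Colgalt2 add galactose to hydroxylysine. Of these 5 genes, 3 were called lower in MUT against WT and the same 3, Plod1, Plod3 and Colgalt1, higher in REG against MUT. Plod3, which also adds glucose, had 15.5, 26.6 and 16.9 in REG, 2.801, 1.82 and 3.16 in MUT and 12.1, 19.3 and 22.5 in WT libraries. MUT lay far below both other groups, and REG replicate 2 was the highest of all. Plod3 fell by 2.61 ± 0.39 in MUT against WT (limma, adjusted p = 0.00198) and rose by 2.75 ± 0.39 in REG against MUT (limma, adjusted p = 0.0018).
Plod1, which acts on the helical part of the chain, had 12.1, 7.42 and 14.6 in REG, 3.86, 4.58 and 4.92 in MUT and 15.2, 19.4 and 20.1 in WT libraries. Its REG libraries lay above MUT and below WT without overlap. Plod1 fell by 1.94 ± 0.35 in MUT against WT and rose by 1.24 ± 0.35 in REG against MUT (limma, adjusted p = 0.0217), the smallest rise of the 26 called. That call was lost under 9 of the 23 alternatives, with an adjusted p (limma) of 0.0674 without MUT replicate 1, 0.0514 without REG replicate 1 and 0.0551 without REG replicate 3. Its difference in REG against WT was -0.71 ± 0.35 (limma, adjusted p = 0.545). Colgalt1 had 15.5, 57.2 and 20.9 in REG, 3.02, 3.98 and 5.34 in MUT and 17.1, 22.6 and 23.1 in WT libraries. The 57.2 in REG replicate 2 was well above every other library. About 11.4% of Colgalt1's exon bases overlap Unc13a on the other strand, and 11.7% of Plod3's overlap Znhit1 on the other strand. Plod3 also shares exon bases with Mir702 on its own strand. Whether the counting used strand is not given in the sources used here.
Plod2, which hydroxylates the ends of the chain that form bone-type crosslinks, was called in no comparison. Its values were 23.8, 3.75 and 28.3 in REG, 9.33, 6.67 and 3.67 in MUT and 15.8, 32.1 and 25.1 in WT libraries. REG replicate 2 lay at the level of MUT, while REG replicates 1 and 3 lay in the WT range, which gave the widest spread of the 3 lysyl hydroxylases in REG. Plod2 differed by -1.87 ± 0.70 in MUT against WT (limma, adjusted p = 0.0622) and by 1.12 ± 0.70 in REG against MUT (limma, adjusted p = 0.237). Of the lysyl hydroxylase values per kilobase, Plod2 made up 45.8, 9.06 and 47.1% in REG, 59.3, 53.4 and 32.3% in MUT and 37.3, 45.5 and 36.96% in WT, and Plod3 35.6, 76.6 and 33.6% in REG, 21.2, 17.4 and 33.2% in MUT and 34.1, 32.6 and 39.4% in WT. Plod3 thus led in REG replicate 2 and Plod2 in REG replicates 1 and 3. In MUT replicates 1 to 3, reads spread over the genome were estimated at 54.2, 50.1 and 41.0% of Plod3's reads. Colgalt2 was scarce in every group and was called in no comparison, with means of 1.103 ± 0.669 in REG, 1.58 ± 0.771 in MUT and 1.47 ± 0.599 in WT (SD, n = 3 each).

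The prolyl 3-hydroxylase family adds a rarer mark to single prolines. P3h1 and Crtap form, with the isomerase Ppib, a complex that modifies type I collagen, and P3h4 (also known as Sc65) works with P3h3 on lysine hydroxylation in mouse skin and bone. Of the 5 genes 4 were called lower in MUT against WT and the same 4 higher in REG against MUT. Crtap had 25.2, 32.5 and 25.9 in REG, 5.67, 3.11 and 1.09 in MUT and 20.99, 31.3 and 30.98 in WT libraries. MUT replicate 3 was lowest, and REG and WT overlapped with nearly equal means of 27.9 ± 4.03 in REG and 27.7 ± 5.86 in WT (SD, n = 3 each). Crtap fell by 3.15 ± 0.49 in MUT against WT (limma, adjusted p = 0.00239) and rose by 3.17 ± 0.49 in REG against MUT (limma, adjusted p = 0.00246).
P3h1, its partner, had 22.1, 21.5 and 19.2 in REG, 4.42, 8.34 and 1.68 in MUT and 14.1, 24.8 and 22.7 in WT libraries. P3h3 had 18.6, 20.8 and 27.4 in REG, 4.34, 7.69 and 4.22 in MUT and 30.4, 44.8 and 37.1 in WT libraries. MUT lay below the other groups for both genes, and for P3h3 the REG libraries lay below the WT libraries as well. P3h3 fell by 2.74 ± 0.36 in MUT against WT (limma, adjusted p = 0.00141) and rose by 2.00 ± 0.36 in REG against MUT (limma, adjusted p = 0.00401), and differed by -0.74 ± 0.36 in REG against WT (limma, adjusted p = 0.538). P3h1 fell by 2.21 ± 0.50 in MUT against WT and rose by 2.27 ± 0.50 in REG against MUT. P3h4 had 9.56, 19.8 and 7.22 in REG, 2.16, 1.43 and 1.46 in MUT and 4.56, 6.05 and 8.48 in WT libraries. It fell by 1.69 ± 0.43 in MUT against WT (limma, adjusted p = 0.0154) and rose by 2.51 ± 0.43 in REG against MUT (limma, adjusted p = 0.00335), with its highest value in REG replicate 2. P3h3 made up 31.1, 25.98 and 41.3% of the P3h1 to P3h4 values per kilobase in REG, 29.4, 38.1 and 37.7% in MUT and 52.9, 51.8 and 46.1% in WT, so its share in every WT library was above its share in every REG and MUT library. P3h4 made up 28.9, 44.6 and 19.6% in REG, 26.4, 12.7 and 23.5% in MUT and 14.3, 12.6 and 18.97% in WT. In MUT replicates 1 to 3, reads spread over the genome were estimated at 30.4, 9.87 and 26.6% of P3h3's reads. For P3h4 the estimates were 34.0, 31.3 and 43.1%. P3h2, which acts mainly on type IV collagen, was called in no comparison, with 1.22, 1.61 and 6.05 in REG, 1.89, 1.34 and 2.49 in MUT and 4.14, 5.11 and 4.71 in WT libraries. REG replicates 1 and 2 lay below every WT library and REG replicate 3 above them, and 28.4% of the exon bases of P3h2 overlap Gm4524 on the other strand.

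Among the chaperones and proline isomerases, 6 of 7 were called lower in MUT against WT and 5 of 7 higher in REG against MUT. Serpinh1, also known as HSP47, is the chaperone that binds the folded helix and is specific to collagen. Its scaled values were 319.5, 305 and 260.4 in REG, 22.6, 68.04 and 8.499 in MUT and 201, 277 and 279 in WT libraries. MUT replicate 2 was the highest MUT library, yet it was far below the lowest WT library. Serpinh1 fell by 3.38 ± 0.62 in MUT against WT (limma, adjusted p = 0.00429) and rose by 3.61 ± 0.62 in REG against MUT (limma, adjusted p = 0.00331), and its difference in REG against WT was 0.24 ± 0.62, with a 95% interval of -1.15 to 1.62.
Sparc, or osteonectin, a collagen-binding protein of bone matrix, was the most abundant of the 38 in every group. It had 1419.7, 2174 and 2363 in REG, 178, 1305 and 90.9 in MUT and 2164, 3546 and 2831 in WT libraries. Within MUT, replicate 2 came close to the lowest REG library, and replicates 1 and 3 lay far below. Sparc fell by 3.33 ± 0.81 in MUT against WT (limma, adjusted p = 0.0125) and rose by 2.81 ± 0.81 in REG against MUT (limma, adjusted p = 0.0225). The rise was lost as a call under 8 of the 23 alternatives, with an adjusted p (limma) of 0.0829 without MUT replicate 1, 0.0792 without MUT replicate 3 and 0.0511 without REG replicate 3, and it was 0.57 log2 units with MUT replicate 2 as the only MUT library. Ppib, or cyclophilin B, the isomerase of the P3h1 complex, had 55.3, 118 and 47.01 in REG, 9.06, 17.1 and 1.92 in MUT and 27.02, 48.2 and 44.9 in WT libraries. It fell by 2.44 ± 0.69 in MUT against WT (limma, adjusted p = 0.0225) and rose by 3.23 ± 0.69 in REG against MUT (limma, adjusted p = 0.00711), with its highest value in REG replicate 2, and 25.0% of its exon bases overlap Snx22 on the other strand. The Ppib call in MUT against WT was lost under 7 of the 23 alternatives, among them the loss of MUT replicate 3, WT replicate 2 or WT replicate 3.
The FK506-binding isomerases Fkbp7, Fkbp9, Fkbp10 and Fkbp14 reside in the ER, and Fkbp10 is needed for the crosslinks of bone collagen. Fkbp10 had 42.7, 27.3 and 47.6 in REG, 5.38, 17.04 and 3.84 in MUT and 30.7, 55.2 and 48.5 in WT libraries. Fkbp9 had 17.7, 15.2 and 59.9 in REG, 4.0002, 8.11 and 5.18 in MUT and 39.002, 85.98 and 66.5 in WT libraries. MUT lay below both other groups for each, and for Fkbp9 REG replicates 1 and 2 lay between MUT and WT while REG replicate 3 lay within the WT range. Fkbp9 fell by 3.37 ± 0.56 in MUT against WT (limma, adjusted p = 0.00283) and rose by 2.12 ± 0.56 in REG against MUT (limma, adjusted p = 0.0158). Its difference of -1.25 ± 0.56 in REG against WT had an adjusted p of 0.527 (limma), and without REG replicate 3 it was called lower in REG, with an adjusted p of 0.0492 (limma). Fkbp10 fell by 2.55 ± 0.54 in MUT against WT and rose by 2.36 ± 0.54 in REG against MUT. Fkbp14 had 2.097, 4.28 and 8.21 in REG, 3.33, 2.87 and 2.69 in MUT and 8.04, 7.47 and 8.55 in WT libraries. It was called lower in MUT against WT (log2 fold change -1.33 ± 0.44 SE, limma, adjusted p = 0.0401), but the call was lost under 12 of the 23 alternatives, among them the loss of any 1 MUT or WT library (adjusted p 0.0746 to 0.114 in limma). Its REG libraries spanned the MUT and WT levels, so that the difference of 0.47 ± 0.44 in REG against MUT did not pass (limma, adjusted p = 0.43). Fkbp7 was called in no comparison: its values were 14.5, 15.8 and 9.33 in REG, 2.97, 18.6 and 0.831 in MUT and 7.105, 10.6 and 8.02 in WT libraries, and MUT replicate 2 held the highest of all 9.

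**Figure D2:**
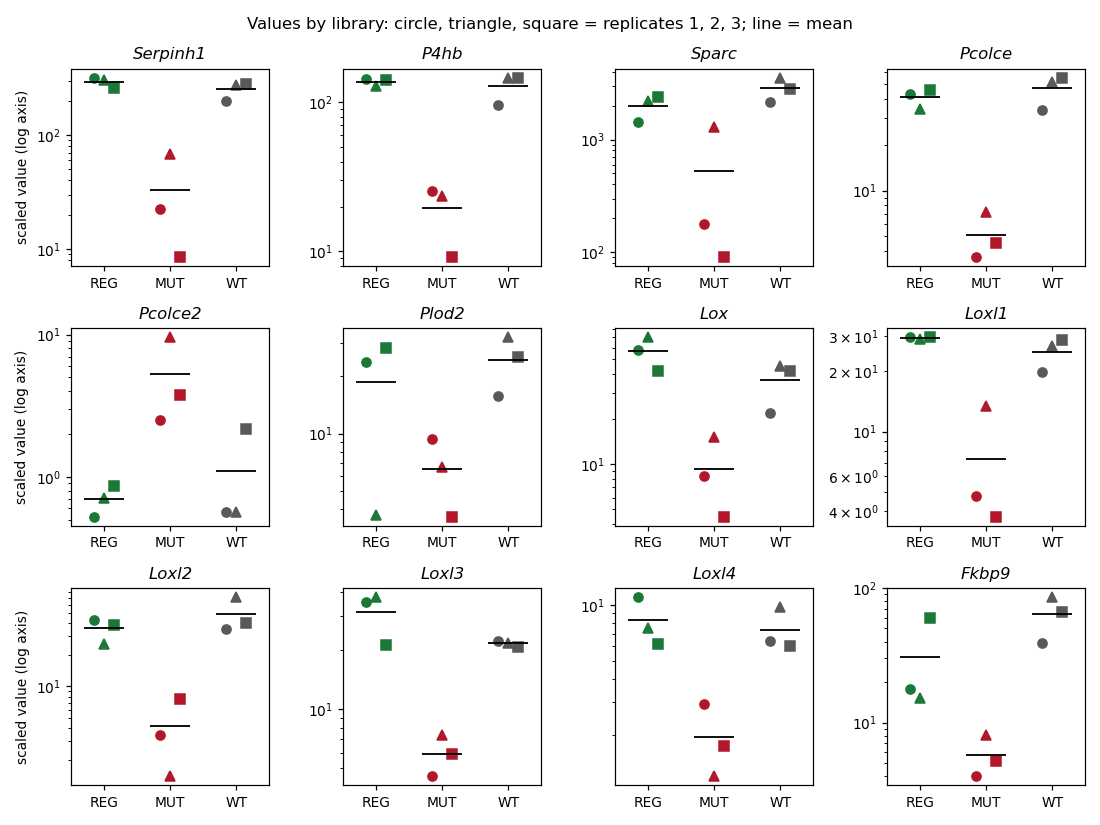
Scaled values (log axis) of 12 of the genes in each library of REG, MUT and WT, with the mean as a line and symbols for replicates 1 to 3. MUT lies below REG and WT in 10 panels, above them for Pcolce2, and the REG triangle (replicate 2) lies in the MUT range for Plod2.

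The proteases that cut procollagen ends, and their enhancers, were the most mixed role: of 7 genes 3 were called lower and 1 higher in MUT against WT, and 3 higher and 1 lower in REG against MUT. Bmp1 encodes the main procollagen C-proteinase, which also activates lysyl oxidase. It had 62.1, 71.6 and 79.1 in REG, 10.5, 22.5 and 8.405 in MUT and 69.96, 91.6 and 84.5 in WT libraries. MUT lay below both other groups, which overlapped. Bmp1 fell by 2.66 ± 0.40 in MUT against WT (limma, adjusted p = 0.0021) and rose by 2.45 ± 0.40 in REG against MUT (limma, adjusted p = 0.00283).
Pcolce and Pcolce2 encode enhancers of that enzyme, and they went opposite ways. Pcolce had 43.3, 34.4 and 46.2 in REG, 3.66, 7.24 and 4.51 in MUT and 34.004, 52.3 and 55.5 in WT libraries. Pcolce2 had 0.525, 0.713 and 0.867 in REG, 2.52, 9.59 and 3.75 in MUT and 0.566, 0.563 and 2.18 in WT libraries. All MUT libraries were below the others for Pcolce and above the others for Pcolce2. Pcolce fell by 3.13 ± 0.37 in MUT against WT (limma, adjusted p = 0.00113), the smallest adjusted p of the set there, and rose by 2.96 ± 0.37 in REG against MUT (limma, adjusted p = 0.00129). Pcolce2 rose by 1.91 ± 0.54 in MUT against WT (limma, adjusted p = 0.0229) and fell by 2.21 ± 0.54 in REG against MUT (limma, adjusted p = 0.0123). Reads spread over the genome were estimated at 20.7, 16.1 and 10.2% of the Pcolce2 reads in REG, 61.6, 9.28 and 35.3% in MUT and 28.8, 22.9 and 7.48% in WT, and its call in MUT against WT was lost under 5 of the 22 alternatives that tested it.
Adamts2, the main procollagen N-proteinase of skin and bone, had 45.6, 23.9 and 107 in REG, 9.26, 27.7 and 7.82 in MUT and 92.8, 145 and 105 in WT libraries. REG replicate 2 fell within the MUT range and REG replicate 3 within the WT range. Adamts2 fell by 3.11 ± 0.61 in MUT against WT (limma, adjusted p = 0.00558) and rose by 1.92 ± 0.61 in REG against MUT (limma, adjusted p = 0.0339), but the second call was lost under 15 of the 23 alternatives. The related Adamts3 and Adamts14 and the Bmp1 relative Tll1 were called in no comparison. Adamts14 averaged 12.6 ± 7.76 in REG, 5.45 ± 3.55 in MUT and 13.3 ± 2.502 in WT (SD, n = 3 each), with a difference of -1.39 ± 0.56 in MUT against WT that missed the threshold (limma, adjusted p = 0.0776). Adamts3 averaged 3.58 ± 1.28 in REG, 3.66 ± 1.97 in MUT and 2.903 ± 0.352 in WT, and Tll1 averaged 2.66 ± 2.24 in REG, 2.27 ± 0.876 in MUT and 2.14 ± 0.599 in WT. In MUT, reads spread over the genome were estimated at 86.9 to 123% of the Tll1 reads, so its MUT value in replicate 2 was not above that estimate.

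Lysyl oxidases turn lysines and hydroxylysines into aldehydes, the first step of the crosslinks that collagen and elastin form from these residues. All 5 members, Lox and Loxl1 to Loxl4, were called lower in MUT against WT and higher in REG against MUT. With scaling to total reads and after background subtraction, the calls of Lox, Loxl1, Loxl3 and Loxl4 in MUT against WT were lost. That of Loxl2 was kept under all 23 alternatives. Lox had 57.96, 70.4 and 42.04 in REG, 8.4001, 15.1 and 4.48 in MUT and 21.9, 45.3 and 41.9 in WT libraries. Loxl1, which serves elastic fibres in particular, had 29.6, 28.9 and 29.5 in REG, 4.78, 13.4 and 3.77 in MUT and 19.9, 26.6 and 28.7 in WT libraries. The MUT libraries lay below all others in both genes, and the 3 REG values of Loxl1 were all just above its highest WT value. Lox fell by 2.01 ± 0.49 in MUT against WT (limma, adjusted p = 0.0125) and rose by 2.69 ± 0.49 in REG against MUT (limma, adjusted p = 0.004), with a REG against WT difference of 0.67 ± 0.49 (limma, adjusted p = 0.651).
Loxl2, best known for crosslinking type IV collagen, had 43.2, 25.1 and 38.6 in REG, 3.46, 1.397 and 7.61 in MUT and 35.2, 71.4 and 39.9 in WT libraries. Its lowest value was in MUT replicate 2, whereas for 21 of the 38 genes that library was the highest of MUT. Loxl2 fell by 3.63 ± 0.55 in MUT against WT (limma, adjusted p = 0.00208), the largest log2 fold change of the 38, and rose by 3.22 ± 0.55 in REG against MUT (limma, adjusted p = 0.00322). Loxl3 had 35.4, 37.6 and 21.3 in REG, 4.54, 7.36 and 5.88 in MUT and 22.2, 21.9 and 20.9 in WT libraries. Loxl4 had 11.05, 7.48 and 6.19 in REG, 2.92, 1.198 and 1.74 in MUT and 6.41, 9.68 and 5.99 in WT libraries. For both genes MUT lay below REG and WT, which overlapped. Loxl3 fell by 1.83 ± 0.35 in MUT against WT and rose by 2.32 ± 0.35 in REG against MUT, and Loxl4 fell by 1.77 ± 0.40 in MUT against WT and rose by 1.92 ± 0.40 in REG against MUT. Loxl1's log2 fold changes were -1.92 ± 0.45 in MUT against WT and 2.16 ± 0.45 in REG against MUT.
Shares of the family were taken per kilobase of exon. Loxl2 made up 20.3, 12.2 and 23.1% of the family in REG, 11.6, 2.76 and 27.2% in MUT and 27.7, 34.9 and 23.9% in WT, and Lox made up 30.8, 38.7 and 28.4% in REG, 31.8, 33.7 and 18.1% in MUT and 19.5, 25.1 and 28.5% in WT. The Loxl2 share in each REG library was below that in each WT library, and the Lox share overlapped by a narrow margin. Loxl4 remained the smallest in WT, at 4.61 to 6.47%. In MUT, reads spread over the genome were estimated at 48.6, 73.1 and 69.8% of Loxl4's reads, and at 52.4, 79.4 and 20.3% of Loxl2's reads, in replicates 1 to 3.

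The last role joins ER export and its control. Mia3 (TANGO1) loads collagen into export carriers, Sec23a and Sec24d are subunits of the COPII coat, Tmem38b (TRIC-B) is an ER potassium channel that supports calcium release, and Creb3l1 (OASIS) is an ER-bound transcription factor that activates type I collagen genes in mouse bone. Of these 5, 3 were called lower in MUT against WT and the same 3 higher in REG against MUT. Sec24d had 34.99, 34.4 and 26.7 in REG, 5.401, 4.63 and 3.61 in MUT and 20.9, 30.7 and 28.2 in WT libraries. The MUT libraries formed a tight group below all others. Estimated reads spread over the genome made up 39.3, 26.6 and 50.1% of Sec24d's reads in MUT replicates 1 to 3. In WT they made up 0.547 to 1.01%. Sec24d fell by 2.45 ± 0.33 in MUT against WT (limma, adjusted p = 0.0015) and rose by 2.73 ± 0.33 in REG against MUT (limma, adjusted p = 0.00122), the smallest adjusted p of the set there. Creb3l1 had 33.5, 44.2 and 31.3 in REG, 5.93, 8.19 and 2.699 in MUT and 31.9998, 47.2 and 48.3 in WT libraries. It fell by 2.94 ± 0.43 in MUT against WT (limma, adjusted p = 0.00191) and rose by 2.73 ± 0.43 in REG against MUT (limma, adjusted p = 0.0025), and MUT lay below both other groups.
Mia3 had 54.2, 43.4 and 67.5 in REG, 11.6, 31.2 and 10.8 in MUT and 52.8, 77.98 and 64.1 in WT libraries. MUT replicate 2 reached 31.2, and the other MUT libraries lay at 11.6 and 10.8. Mia3 fell by 2.00 ± 0.45 in MUT against WT (limma, adjusted p = 0.00934) and rose by 1.75 ± 0.45 in REG against MUT (limma, adjusted p = 0.0141). The second of these calls was lost under 7 of the 23 alternatives, among them the loss of MUT replicate 1 or MUT replicate 3. Sec23a, the partner of Sec24d, was not called, with means of 8.78 ± 3.55 in REG, 4.95 ± 2.58 in MUT and 11.1 ± 0.821 in WT (SD, n = 3 each) and a difference of -1.21 ± 0.44 in MUT against WT (limma, adjusted p = 0.0558). Tmem38b was called in no comparison, at 3.74 ± 1.49 in REG, 5.15 ± 1.31 in MUT and 4.23 ± 0.529 in WT, with a difference of 0.24 ± 0.39 in MUT against WT (limma, 95% interval -0.63 to 1.12).

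**Figure D3:**
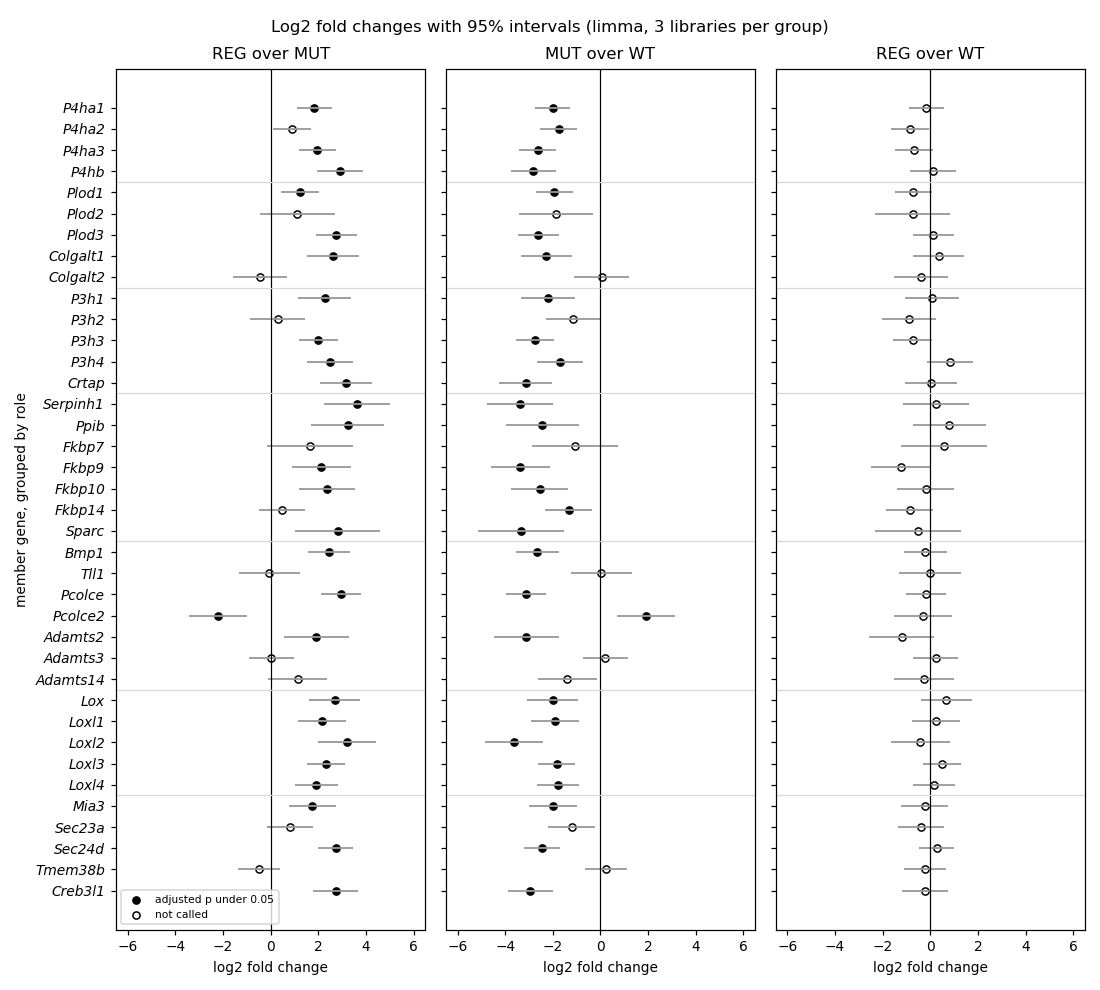
Log2 fold change (points) with its 95% interval (lines) of the 38 genes in REG over MUT, MUT over WT and REG over WT, from 1 limma fit of the 9 libraries. Filled points have an adjusted p under 0.05: 27, 29 and 0 genes in the 3 panels.

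The operated suture was set against wild type to ask how near the levels came. The estimates for the 38 genes ran from -1.25 ± 0.56 for Fkbp9 to 0.81 ± 0.43 for P3h4, 23 negative and 15 positive. The smallest adjusted p was 0.513 (limma, P4ha2), so no difference was established. The 95% intervals were wide, however: that of Sparc ran from -2.32 to 1.27, that of P4hb from -0.85 to 1.06 and that of Lox from -0.41 to 1.76. Differences within those limits were thus not excluded with 3 libraries a group. Group ranges did not overlap for 5 genes, with Loxl1 above WT in every REG library and P4ha2, P4ha3, Plod1 and P3h3 below WT in every REG library. Over all genes tested, every REG library lay above every WT library for 4.03% and below every WT library for 12.1%, so the 1 and 4 members of 38 were no more than the background. Without REG replicate 3, the library with few muscle reads, 2 members were called lower in REG against WT (P3h2, limma, adjusted p = 0.0499, and Fkbp9, limma, adjusted p = 0.0492), along with 1186 genes lower and 410 higher over all genes.

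The order of the levels, per kilobase of exon, was led by the same 3 genes in every group. Sparc stood at 524 ± 132 in REG, 138 ± 179 in MUT and 752 ± 182 in WT (scaled value per kilobase, SD, n = 3 each). Serpinh1 stood at 121 ± 12.6 in REG, 13.5 ± 12.7 in MUT and 103 ± 18.4 in WT, and P4hb at 47.7 ± 2.74 in REG, 6.78 ± 3.12 in MUT and 45.1 ± 9.99 in WT. In REG and WT these 3 did not come within their spread of each other, whereas in MUT the spread of Sparc exceeded its mean. The fourth place went to Ppib in REG (22.2 ± 11.7), to Fkbp7 in MUT (5.02 ± 6.52) and to Fkbp9 in WT (19.3 ± 7.12), and from there 33 of 34 neighbouring pairs in REG, all 34 in MUT and 29 of 34 in WT differed by no more than the larger of their SDs. At the low end were Tll1, Colgalt2 and Pcolce2 in REG and WT, and Pcolce2 reached 1.14 ± 0.817 in MUT.

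Measures taken within a library do not depend on how libraries were scaled to each other. Reads of the 38 genes made up 0.7302, 1.03 and 0.829% of all estimated reads in REG, 0.222, 0.575 and 0.152% in MUT and 0.695, 0.969 and 0.8897% in WT libraries. Without Sparc the shares were 0.343, 0.384 and 0.298% in REG, 0.122, 0.132 and 0.0971% in MUT and 0.226, 0.297 and 0.298% in WT. The set thus took a smaller share of the reads in every MUT library than in any other library, on either count. P4hb alone took 387, 376 and 315 reads per 1000000 reads in REG, 144, 79.4 and 55.5 in MUT and 208, 274 and 305 in WT, and Serpinh1 took 871, 898 and 585 in REG, 127, 231 and 51.4 in MUT and 435, 525 and 584 in WT. Both genes showed the MUT libraries lowest, and every REG library above every WT library, by a narrow margin for each. On the scaled values the REG and WT ranges of both genes overlapped. How many of all genes were separated in this way per 1000000 reads was not counted.

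Collagen chains were counted beside these genes. Of 11 fibrillar collagen chains, 9 were called lower in MUT against WT and 9 higher in REG against MUT, against 14.6% and 11.8% of all genes tested. Col1a1, the main chain of bone collagen, averaged 12277 ± 7804 in REG, 4130.1 ± 5147 in MUT and 21355 ± 6817 in WT (SD, n = 3 each), and Col3a1, a chain of soft connective tissue, averaged 3252 ± 421 in REG, 28.4 ± 24.8 in MUT and 6468 ± 2139.6 in WT. Col1a1 was 1 of the 2 chains not called in REG against MUT, with overlapping ranges and a difference of 2.22 ± 0.82 (limma, adjusted p = 0.0566). Col3a1 fell by 8.13 ± 0.58 log2 units in MUT against WT (limma, adjusted p = 0.000119). Reads of 4 members were then set against those of Col1a1 and Col1a2 together. Serpinh1 had 28.3, 26.9 and 8.07 reads per 1000 type I collagen reads in REG, 9.63, 5.02 and 6.76 in MUT and 8.31, 6.48 and 10.3 in WT libraries. The MUT and WT ranges overlapped, and REG replicates 1 and 2 stood far above the rest while REG replicate 3 lay within the WT range. Sparc had 126, 192 and 73.3 in REG, 75.8, 96.5 and 72.5 in MUT and 89.7, 82.95 and 104 in WT. P4hb had 12.6, 11.3 and 4.34 in REG, 10.9, 1.73 and 7.305 in MUT and 3.97, 3.38 and 5.37 in WT, and Lox had 5.14, 6.22 and 1.303 in REG, 3.58, 1.11 and 3.55 in MUT and 0.908, 1.06 and 1.54 in WT. For P4hb and Lox, MUT replicates 1 and 3 lay above the WT range, MUT replicate 2 below it for P4hb and within it for Lox, and REG replicates 1 and 2 again above it. The MUT and WT ranges of the ratio overlapped for all 4 genes. The ratios were not corrected for reads spread over the genome, whose share was larger in MUT replicates 1 and 3, and they are given as values with no test.

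**Figure D4:**
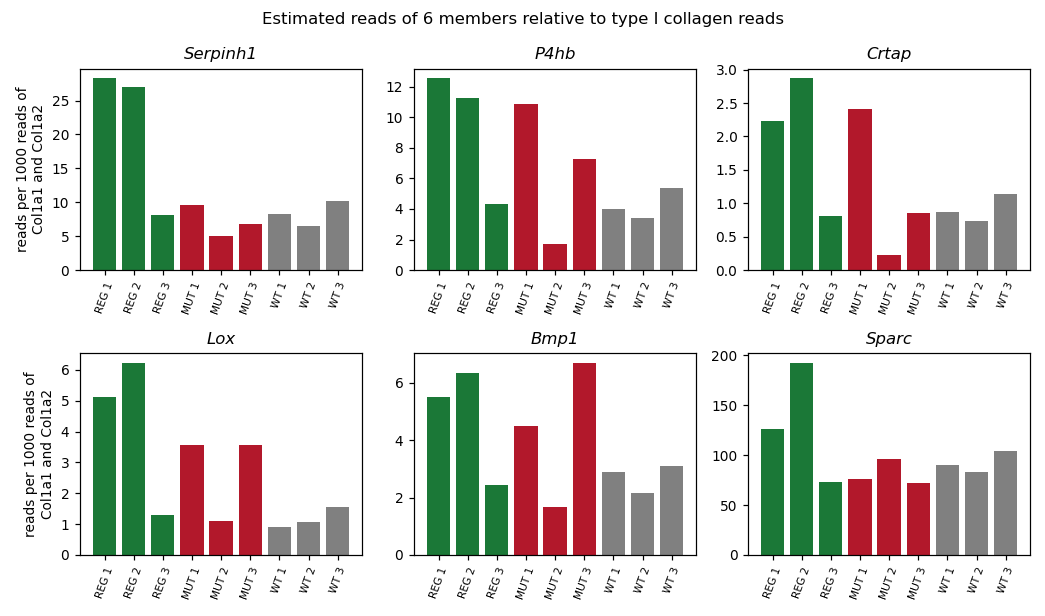
Estimated reads of 6 of the genes per 1000 reads of Col1a1 and Col1a2 together, 1 bar per library, with REG, MUT and WT from left to right and axes that start at 0. REG replicates 1 and 2 are the highest for Serpinh1 (28.3 and 26.9) and Sparc, and REG replicate 3 is within the WT range in each panel except Sparc, where it is below it.

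Other genes of the same route were counted in lists of their own. Of all genes tested, 14.6% were called lower in MUT against WT and 11.8% higher in REG against MUT. Of 14 general ER chaperones and oxidoreductases, 11 were called lower in MUT against WT and 12 higher in REG against MUT. Hspa5 (BiP), the main ER chaperone, averaged 142 ± 20.1 in REG, 19.8 ± 1.78 in MUT and 111 ± 11.1 in WT (SD, n = 3 each), a fall of 2.47 ± 0.31 in MUT against WT (limma, adjusted p = 0.00123). Of 17 COPII and cargo export genes outside the set, 9 were called lower in MUT against WT, and 10 higher and 1 lower in REG against MUT. Sec24b, another coat subunit, averaged 41.7 ± 9.65 in REG, 8.97 ± 1.39 in MUT and 69.2 ± 4.53 in WT. Of 13 genes that supply ascorbate, iron, copper and 2-oxoglutarate, 5 were called lower in MUT against WT and 5 higher in REG against MUT, among them Slc39a13, the zinc transporter ZIP13 (20.4 ± 1.83 in REG, 4.36 ± 1.17 in MUT and 26.3 ± 6.14 in WT). Of 12 genes of collagen breakdown and uptake, 9 were called lower in MUT against WT and 10 higher in REG against MUT, led by Timp2, an inhibitor of matrix metalloproteinases (129 ± 20.3 in REG, 7.92 ± 1.604 in MUT and 215 ± 77.6 in WT). Of 12 further osteogenesis imperfecta genes, 2 of which are the type I collagen chains above, 8 were called lower and 1 higher in MUT against WT, and 7 higher and 2 lower in REG against MUT. No gene of any of these lists was called in REG against WT. The authors' deposited table gave a like count for the 38 genes: at an FDR under 0.05 it had 27 higher and 1 lower in WT over MUT (its own direction), 26 higher and 1 lower in REG over MUT, and none in WT over REG.

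The number of members called changed with the scaling and with background subtraction. With scaling to total reads 15 of the 38 were called lower in MUT against WT (2.89% of all genes), and after subtraction of the estimated background 11 were (3.58% of all genes). With MUT replicate 2, the MUT library with the smallest estimated background, as the only MUT library, 14 were called lower (5.96% of all genes), and that lone library is assumed to vary like the others. The set's median stayed below that of all genes in MUT against WT in each of these, by 1.92, 1.56 and 1.77 log2 units. The set's own median was smaller in size, however, at -0.80, -1.30 and -1.65 in that order, against -2.01 as reported. In MUT replicates 1 to 3 the estimated background made up a median of 32.3, 11.2 and 32.6% of a member's reads, against 0.365 to 0.456% in REG and 0.412 to 0.762% in WT libraries. It exceeded 50% for 9, 6 and 8 members in MUT replicates 1 to 3 and for none in REG or WT. In MUT it was at most 1.19% for Sparc, 8.20% for Serpinh1 and 8.88% for P4hb. Calls in MUT against WT that were lost on leaving out 1 library were also those of P3h4 and Lox (WT replicate 2 or WT replicate 3), and of Loxl1 and Loxl4 (WT replicate 2), as was that of Sparc (WT replicate 2), and in REG against MUT that of Fkbp9 (MUT replicate 1).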

How the data were processed

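The submitters' processing notes name the mm10 build, STAR 2.6.1d and Partek. How reads were counted, on which annotation, and how values were normalized is not given in the sources used here. Signal was deposited as a matrix of 43644 unnamed values for each of 9 libraries, and its values show upper-quartile scaling by the authors. Gene names were taken from the order of the deposited gene table after 4 statistics per gene (sum, maximum, geometric and arithmetic mean) matched for all 43644 genes within a relative tolerance of 1e-06. That deposited table also gives the authors' log2 ratio, p-value and FDR per comparison, per the file headers. Reads were estimated by dividing a value by the smallest one of its library and taking off 1.

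All comparisons came from 1 fit with limma 3.58.1 in R 4.3.3 (lmFit, contrasts.fit, eBayes) of log2(value + 0.367) over the 9 libraries, on the 29107 genes that reached 0.367 in 3 or more libraries, so a fold change understates that of low genes. Tests are two-sided, with Benjamini-Hochberg adjustment over all genes tested and a call at adjusted p under 0.05. Exon lengths came from GENCODE vM21 (GRCm38) and promoter windows from RefSeq GRCm38.p6, matched by symbol. Reads spread over the genome were estimated from the reads per kilobase of 1597 olfactory and vomeronasal receptor genes. The fit was tested on simulated data. Alternatives were 23 in number: other scalings, background subtraction, pseudocounts, filters, limma options, a replicate block, and libraries left out. All 38 members are named, with every library's value for those called and for the lysyl oxidases, and up to 3 genes of smallest p from each other list. Col1a1 and Col1a2 are named for the ratios, which were chosen after their values were seen. The members and the lists were chosen with earlier results of these data known.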

Additional observations from a re-analysis of the deposited data

How the results depend on the processing

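The count of members called lower in MUT against WT was 28 as reported, 15 with scaling to total reads, 11 after background subtraction and 14 with MUT replicate 2 as the only MUT library. The count called higher in REG against MUT was 26 as reported, 12 after background subtraction and 14 with MUT replicate 2 as the only MUT library. Other settings stayed within 1.5 times of these counts, and leaving out 1 library gave 21 to 31 lower and 21 to 28 higher. The count called higher in MUT against WT was 1 as reported, 3 with scaling to total reads, 0 with trimmed-mean scaling, with a pseudocount 10 times higher and with a filter 10 times stricter, and 0 to 1 when 1 library was left out (0 without MUT replicate 2, WT replicate 1 or WT replicate 2). The count called lower in REG against MUT was 1 as reported and 0 with trimmed-mean scaling, the stricter filter, array quality weights or REG replicate 3 as the only REG library. In REG against WT the count of members lower was 0 to 2 when 1 library was left out, with 2 (P3h2 and Fkbp9, named after their values were seen) only without REG replicate 3. The cause of these changes was not tested.

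All 23 alternatives kept 9 of 29 calls in MUT against WT and 10 of 27 in REG against MUT, and no called member changed sign. The median log2 difference of all genes in MUT against WT was 0.18 as reported, 1.11 with scaling to total reads, -0.05 with quantile and -0.51 with trimmed-mean scaling. The members' median was -2.01, -0.80, -1.61 and -2.53 in that order of settings, which lay below that of all genes by 2.19, 1.92, 1.56 and 2.01. Higher calls were 58.3% of all calls in MUT against WT as reported, and 93.1%, 50.9% and 25.2% under those scalings; in REG against MUT they were 32.2%, and 7.9%, 43.7% and 76.5%. Over all genes, MUT against WT gave 5964 higher and 4261 lower calls as reported, with 910 to 11734 higher and 863 to 7645 lower across the alternatives. REG against MUT gave 3432 higher and 7221 lower, with 840 to 7126 higher and 872 to 11455 lower. REG against WT gave 0, and 410 higher and 1186 lower without REG replicate 3. Libraries of different groups with the same title number did not deviate together (correlations -0.20 to 0.10). The largest correlation between groups was 0.38, for REG replicate 3 with WT replicate 2. The REG library names carry other numbers than the titles, so title numbers need not mark pairs. Neither this check nor a block by title number can therefore decide whether libraries were paired. A fit with the replicate block called 27 members lower and 1 higher in MUT against WT, 25 higher and 1 lower in REG against MUT and 0 in REG against WT. MUT replicate 2 had 2945636 estimated reads, which limits low values there, and 13 members share exon bases with other genes.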
